A study of Mus musculus with 2 samples.

Results

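The genes described here are the platelet-derived growth factor (PDGF) ligands and their receptors: the 4 ligand genes Pdgfa, Pdgfb, Pdgfc and Pdgfd and the 2 receptor genes Pdgfra and Pdgfrb. They were chosen by name, as the complete ligand and receptor set of the family, from the 56954 features of the deposited matrix, and all 6 were found in it. The question was which cells of the overloaded mouse heart carried transcripts of the ligands and which carried those of the receptors. The data are 1 pooled single-cell library of heart cells other than cardiomyocytes, without replicate. The pool combined 3 control mice and 4 mice with a knockout (KO) of Nts, the neurotensin gene. All had undergone TAC surgery, in which the aorta is constricted and the heart pumps against raised pressure, and were studied after 7 days. The mice were 6 to 8 weeks old per the labels, and the genotype entry of the library reads WT, which differs from its title. The construction of the knockout allele is not given in the sources used here. A CreERT2 transgene stands among the features, and no label used here says which mice carried it. The cells could not be assigned to mice here, so control and KO cells were not compared, and every value averages over the pool in unknown proportions. No unoperated heart was among the samples, so no level here can be set against one.

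PDGF ligands are secreted dimers that act on a pair of related receptor tyrosine kinases. PDGF-A acts through the alpha receptor, PDGF-B through both receptors, PDGF-C mainly through the alpha receptor and PDGF-D mainly through the beta receptor. PDGF-C and PDGF-D carry a CUB domain that extracellular proteases must remove before the ligand can act. In the vessel wall, PDGF-B from endothelium is known for recruiting pericytes and smooth muscle cells that carry the beta receptor. The alpha receptor is widely used as a marker of cardiac fibroblasts, so it was not used to define them here. Fibroblast clusters were defined by 10 other markers, with a set level of both Col1a1 and Dcn required. No member was used in the clustering or the marker lists, but doublets were called before the members were set aside.

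On GRCm38, all 6 loci are protein coding. Pdgfa (ENSMUSG00000025856) lies on chromosome 5 from 138976014 to 138997370 on the minus strand, and Pdgfb (ENSMUSG00000000489) on chromosome 15 from 79995874 to 80014977 on the minus strand. Pdgfc (ENSMUSG00000028019) lies on chromosome 3 from 81036416 to 81214040 and Pdgfd (ENSMUSG00000032006) on chromosome 9 from 6168584 to 6378850, both on the plus strand. Pdgfra (ENSMUSG00000029231) lies on chromosome 5 from 75152292 to 75198215 and Pdgfrb (ENSMUSG00000024620) on chromosome 18 from 61045150 to 61085061, both on the plus strand. Genes on the opposite strand overlap all of them except Pdgfrb. The most abundant of these was 6330403L08Rik at Pdgfa with 72 UMIs (unique molecular identifiers, the tags that count captured transcripts), against 1731 for Pdgfa itself. The others had at most 18 UMIs. Whether counting used strand is not given in the sources used here.

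After removal of 391 called doublets, 8978 cells with 65029926 UMIs remained, with a median of 6663 UMIs per deposited barcode. Fibroblast-marker cells numbered 4856 (54.1%) in 9 clusters, each with Col1a1 and Dcn above 500 CPM (UMIs of a gene per 1000000 UMIs of the group). Single cells with at least 2 UMIs of both Col1a1 and Dcn and none of 6 excluding genes numbered 4282, and 98.4% of them lay in these clusters. Macrophage-like cells numbered 1855 and monocyte-like cells 374. The vessel lining gave 218 blood endothelial-like, 224 endocardial-like and 70 lymphatic endothelial-like cells, and the vessel wall 39 pericyte-like and 21 smooth muscle-like cells. The remaining classes were 29 mesothelial or epicardial-like, 228 dendritic-like, 149 NK or innate lymphoid-like, 343 T cell-like and 166 B cell-like cells. Another 384 cells in 4 mixed clusters and 22 cells in a cluster that lost its name stayed in no class. Against the labelled cell type, the 10 cardiomyocyte markers summed to between 4.44 and 44.99 CPM in 12 of the 13 classes. In smooth muscle-like cells they summed to 710 CPM, of which Pln, which smooth muscle also expresses, gave 542 CPM. Shares of cells describe the sorted suspension of viable cells, not the tissue. All intervals are 95% exact intervals and cover counting error only. Cells are not replicates, so no significance test was possible.

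Each ligand had its highest level in another class than the alpha receptor, and Pdgfa shared the mural cells with the beta receptor. Pdgfb was highest in blood endothelial-like cells, Pdgfd in the same class, Pdgfa in smooth muscle-like and pericyte-like cells, and Pdgfc in macrophage-like cells. For Pdgfd and Pdgfc the interval of the top class overlapped that of the next, so their first place is not settled. Pdgfra was highest in fibroblast-marker cells and Pdgfrb in pericyte-like cells. Because the classes differ in size, the class with the highest level was often not the class that held most of the transcripts. Of the 1189 Pdgfb UMIs, macrophage-like cells held 58.2% and blood endothelial-like cells 19.2%. Of the 420 Pdgfd UMIs, fibroblast-marker cells held 70.2% and blood endothelial-like cells 16.9%. Of the 1731 Pdgfa UMIs, macrophage-like cells held 35.5%, fibroblast-marker cells 31.1% and blood endothelial-like cells 8.09%. Macrophage-like cells held 76.1% of the 163 Pdgfc UMIs. Fibroblast-marker cells held 10621 of the 11180 Pdgfra UMIs and 87.2% of the 3391 Pdgfrb UMIs, and the pericyte-like and smooth muscle-like cells together held 6.19% of the latter.

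**Figure D1:**
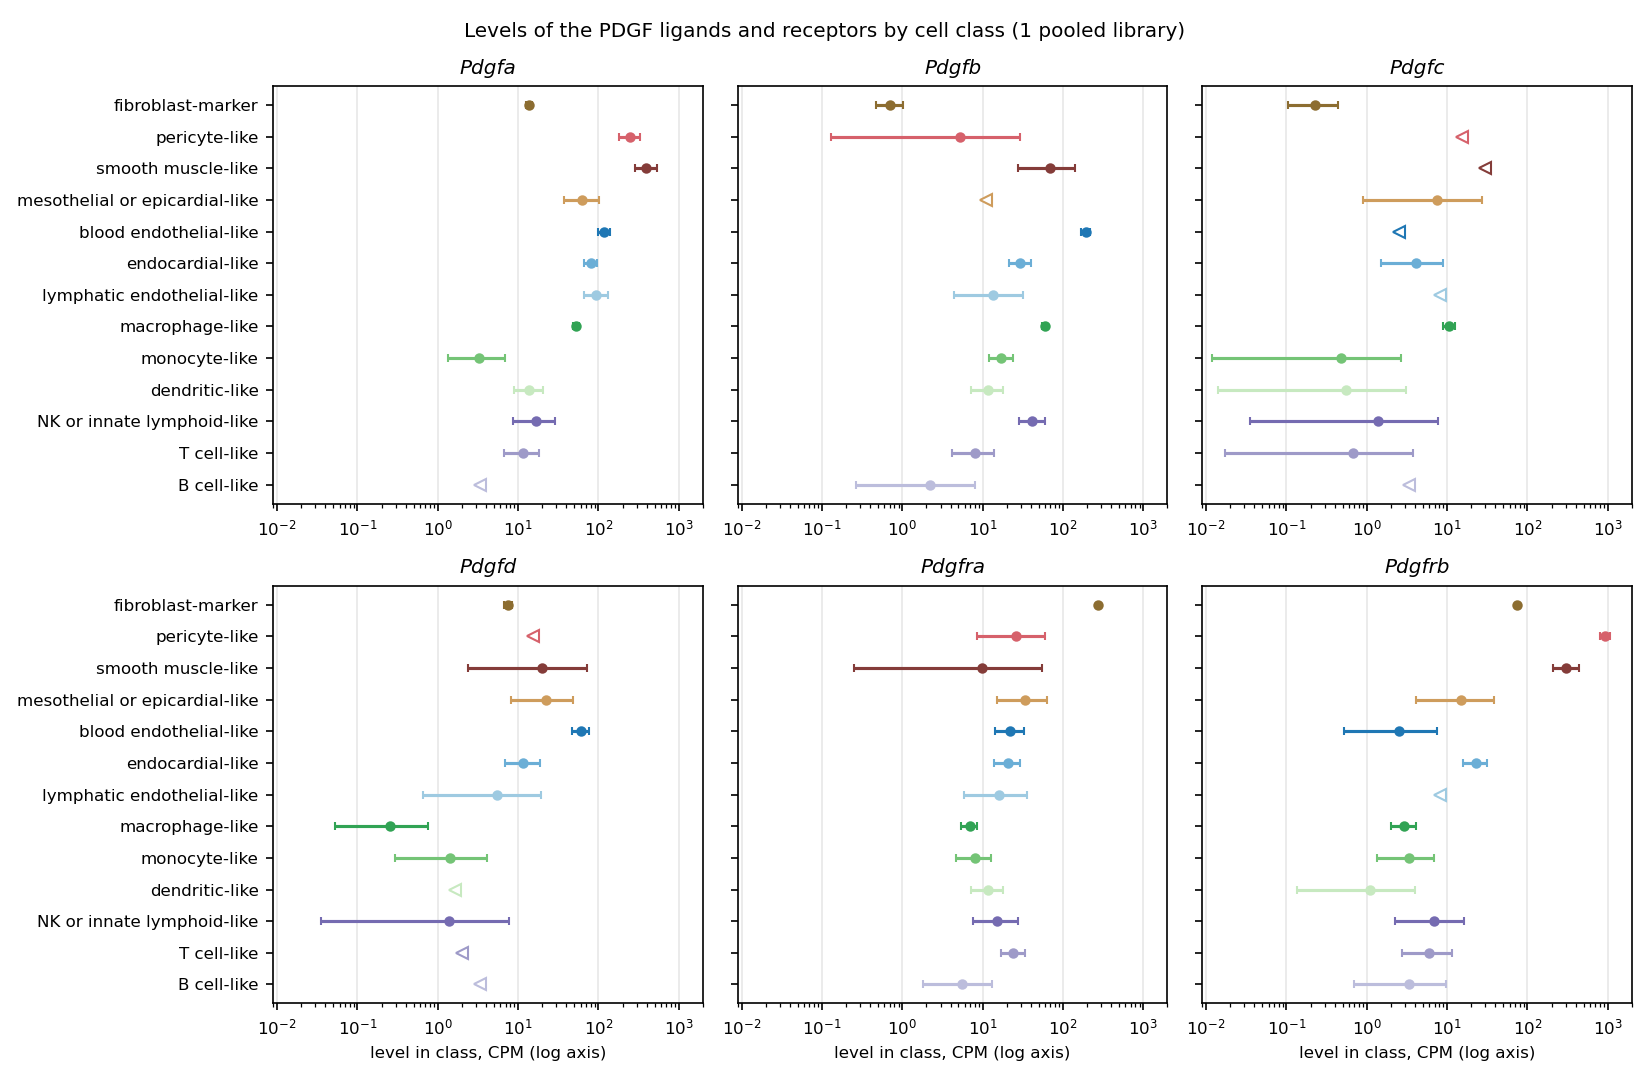
Level of each PDGF gene (CPM of the class total, log axis) in 13 cell classes of 1 pooled library. Points are summed levels with 95% exact Poisson intervals, and open triangles mark classes with 0 UMIs, placed at the level that 3 UMIs would give. Pdgfb and Pdgfd peak in blood endothelial-like cells (194 and 60.3 CPM), Pdgfra in fibroblast-marker cells (269 CPM) and Pdgfrb in pericyte-like cells (926 CPM). The Pdgfd interval of blood endothelial-like cells overlaps that of the next class.

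**Figure D2:**
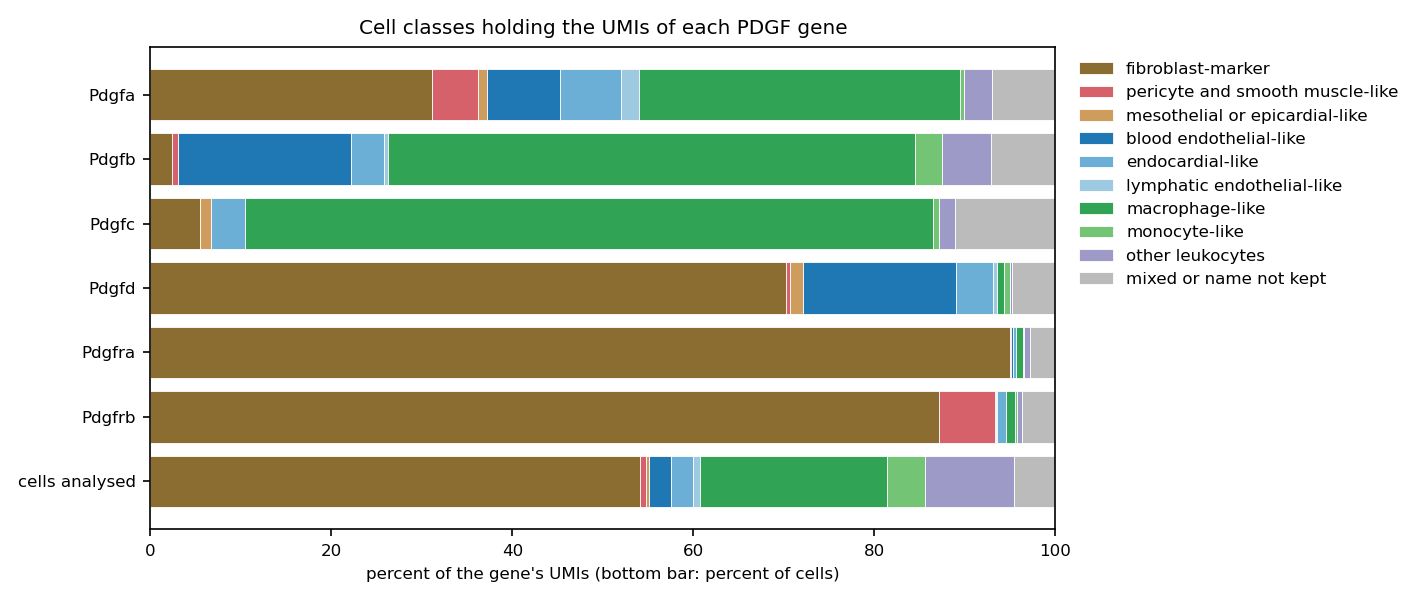
Share of each PDGF gene's UMIs held by each cell class, as stacked bars that each sum to 100 percent, with the share of cells in each class as the bottom bar. Fibroblast-marker cells are 54.1% of the cells and hold 10621 of the 11180 Pdgfra UMIs but 2.35% of the Pdgfb UMIs.

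Pdgfb, the ligand of both receptors, reached 194 CPM in blood endothelial-like cells (169 to 220, 228 UMIs). The next classes were smooth muscle-like cells at 69.0 CPM from 7 UMIs (27.8 to 142), macrophage-like cells at 59.5 CPM (55.1 to 64.1) and NK or innate lymphoid-like cells at 41.8 CPM (28.2 to 59.6). Blood endothelial-like cells stood clear of all other classes, while the intervals of each of these 3 overlapped that of its neighbour. Endocardial-like cells had 29.5 CPM (21.4 to 39.7), monocyte-like cells 17.0 CPM and lymphatic endothelial-like cells 13.5 CPM from 5 UMIs (4.38 to 31.5). Pericyte-like cells had 1 Pdgfb UMI, so nearly all of the mural signal came from the 21 smooth muscle-like cells. Fibroblast-marker cells had 0.710 CPM (0.472 to 1.03), the lowest level of any class with a UMI. Mesothelial or epicardial-like cells had 0 UMIs, which allows up to 11.2 CPM. In the NK or innate lymphoid-like class all 30 UMIs came from cluster 22, led by Gzma and Xcl1, and 8 of them from 1 cell.

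Seen per cell, Pdgfb was detected in 30.7% of blood endothelial-like cells (24.7 to 37.3%) after each cell had been thinned to 2500 UMIs, and in 53.2% without thinning. Macrophage-like cells gave 12.2% (10.8 to 13.8%), 25.6% without thinning. The background, taken from the 509 B cell-like and T cell-like cells, was 1.38% (0.555 to 2.81%). After thinning it came from 7 of 343 T cell-like cells and 0 of 166 B cell-like cells (0 to 2.20%). Whether T cells express Pdgfb was not tested. The share in fibroblast-marker cells, 0.247%, lay below the pooled background and inside the B cell-like interval, and is read as background. Median depths were 4532 UMIs in blood endothelial-like cells, 5580 in macrophage-like cells, 7604 in fibroblast-marker cells, 3392 in T cell-like cells and 3588 in B cell-like cells. Platelets also store PDGF. Of the 8 platelet or megakaryocyte markers, summed over each class, macrophage-like cells had 2913 CPM and the other classes 42.2 to 553 CPM. In macrophage-like cells Pf4, a chemokine that macrophages can also express, gave 2897 CPM and Ppbp 13.9 CPM, while Gp1bb and Tubb1 were at 0 UMIs. In blood endothelial-like cells 5 of the 8 markers, Ppbp and Gp9 among them, were at 0 UMIs. The part of platelet RNA in the Pdgfb levels was not tested.

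Pdgfd, the ligand of the beta receptor, reached 60.3 CPM in blood endothelial-like cells (47.1 to 76.0, 71 UMIs). Mesothelial or epicardial-like cells followed with 22.3 CPM from 6 UMIs (8.20 to 48.6), smooth muscle-like cells with 19.7 CPM from 2 UMIs (2.39 to 71.3) and endocardial-like cells with 11.7 CPM (6.80 to 18.7). The intervals of the first 3 classes overlap in sequence, so their order is not settled at this depth. Fibroblast-marker cells had 7.48 CPM (6.65 to 8.39), a low level that their number made into most of the Pdgfd transcripts. Macrophage-like cells, with 3 UMIs and 0.258 CPM (0.0532 to 0.753), were far below. The 39 pericyte-like cells had 0 UMIs, which allows up to 15.5 CPM. Thinned shares were 14.7% in blood endothelial-like cells (10.3 to 20.1%), 22.5% unthinned, and 1.87% in fibroblast-marker cells (1.51 to 2.30%), 5.50% unthinned. No B cell-like or T cell-like cell had a Pdgfd UMI, which allows a level of up to 1.25 CPM there.

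Pdgfa, the ligand of the alpha receptor, was highest in the vessel wall. Smooth muscle-like cells had 395 CPM (282 to 537, 40 UMIs) and pericyte-like cells 248 CPM (183 to 329, 48 UMIs), with overlapping intervals. All 3 endothelial classes carried it at levels that overlapped in sequence: 119 CPM in blood endothelial-like (100.0 to 140), 94.5 CPM in lymphatic endothelial-like (65.8 to 131) and 80.3 CPM in endocardial-like cells (66.4 to 96.2). Mesothelial or epicardial-like cells had 63.3 CPM (36.9 to 101) and macrophage-like cells 52.8 CPM (48.7 to 57.1). Macrophage-like cells stood clear of the next class, NK or innate lymphoid-like cells at 16.7 CPM. Fibroblast-marker cells had 13.6 CPM (12.5 to 14.9), monocyte-like cells 3.31 CPM, and B cell-like cells 0 UMIs, which allows up to 3.33 CPM. After thinning, 66.7% of smooth muscle-like, 46.2% of pericyte-like, 17.9% of blood endothelial-like, 11.4% of macrophage-like and 2.97% of fibroblast-marker cells had a Pdgfa UMI, against a background of 0.393% in B cell-like and T cell-like cells. Unthinned, these shares were 71.4%, 56.4%, 27.5%, 22.2%, 8.24% and 0.786%. Pdgfa was thus the only ligand of the 4 that each of these 5 classes carried above that background share.

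Pdgfc was scarce everywhere. Macrophage-like cells had 10.7 CPM (8.86 to 12.7, 124 UMIs). Mesothelial or epicardial-like cells had 7.44 CPM from 2 UMIs (0.902 to 26.9) and endocardial-like cells 4.12 CPM from 6 UMIs (1.51 to 8.96), both with intervals that reach the macrophage level. Fibroblast-marker cells, with 0.228 CPM (0.104 to 0.433, 9 UMIs), were far below it. Blood endothelial-like cells had 0 UMIs, which allows up to 2.55 CPM, and pericyte-like, smooth muscle-like, lymphatic endothelial-like and B cell-like cells had 0 UMIs as well. At 2500 UMIs per cell, 2.21% of macrophage-like cells had a Pdgfc UMI (1.59 to 2.99%), 6.09% unthinned, against 0.197% of B cell-like and T cell-like cells. The 18 Pdgfc UMIs in mixed clusters, 11.04% of the total, belong to no class.

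Pdgfra, the alpha receptor, had 269 CPM in fibroblast-marker cells (264 to 275). The other 12 classes lay between 5.55 CPM in B cell-like cells and 33.5 CPM in mesothelial or epicardial-like cells. After thinning, 48.5% of fibroblast-marker cells had a Pdgfra UMI, 80.5% unthinned, against a background of 2.55% in B cell-like and T cell-like cells, 4.32% unthinned. Most of that background was T cell-like, with thinned shares of 3.50% in T cell-like and 0.602% in B cell-like cells. The gated single cells gave 270.1 CPM. Since 98.4% of them lay in the fibroblast-marker clusters, and both definitions use Col1a1 and Dcn, this is largely the same cells counted again.

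Pdgfrb, the beta receptor, followed another order. Pericyte-like cells had 926 CPM (796 to 1072), smooth muscle-like cells 306 CPM (208 to 434), fibroblast-marker cells 75.0 CPM (72.3 to 77.7) and endocardial-like cells 22.6 CPM (15.6 to 31.8). Each of the first 3 stood clear of the next. In pericyte-like cells 38 of 39 had a Pdgfrb UMI after thinning, in smooth muscle-like cells 42.9% and in fibroblast-marker cells 17.0% (40.7% unthinned), against a background of 0.982%. Lymphatic endothelial-like cells had 0 UMIs, which allows up to 8.10 CPM, and blood endothelial-like cells 3 UMIs or 2.55 CPM (0.525 to 7.44). Taking both receptors together, Pdgfrb made up 21.8% of the receptor UMIs of fibroblast-marker cells (21.1 to 22.5%), 97.3% of those of pericyte-like cells and 96.9% of those of smooth muscle-like cells. These are shares of captured 3′ ends of transcripts, not of receptor protein.

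Fibroblast transcripts were present in every class, so both receptors were also read against them. The 10 fibroblast markers summed to 62646 CPM in fibroblast-marker cells and to between 1961 CPM (macrophage-like) and 23274 CPM (mesothelial or epicardial-like) elsewhere, with none at 0 in any class. Per 1000 UMIs of Dcn, which encodes the matrix proteoglycan decorin, fibroblast-marker cells had 13.7 Pdgfra UMIs. The same ratio was 13.0 in macrophage-like (10.3 to 16.1), 13.1 in monocyte-like (7.61 to 20.9), 13.8 in T cell-like (9.69 to 19.2) and 16.2 in blood endothelial-like cells (10.6 to 23.7). The intervals of these 4 classes hold the fibroblast value. Endocardial-like cells at 6.70 (4.52 to 9.56) and mesothelial or epicardial-like cells at 3.85 (1.76 to 7.31) had less Pdgfra per Dcn UMI. Col1a1, which encodes a collagen chain and is less abundant here, gave 100.4 Pdgfra UMIs per 1000 in fibroblast-marker cells. By that reference the macrophage-like ratio of 109.9 (87.1 to 137), the monocyte-like ratio of 111 (64.7 to 178) and the T cell-like ratio of 81.6 (57.2 to 113) again held the fibroblast value in their intervals. Blood endothelial-like cells were above it at 181 (118 to 265), with 19 of their 26 Pdgfra UMIs from 6 Dcn-rich cells described below. NK or innate lymphoid-like cells were also above the fibroblast value at 208 (104 to 371). Pericyte-like cells, with 5 Pdgfra UMIs, were below it at 21.7 (7.06 to 50.7), as were endocardial-like cells at 47.2 (31.8 to 67.3) and mesothelial or epicardial-like cells at 24.9 (11.4 to 47.2). For Pdgfrb the fibroblast-marker ratio was 3.81 per 1000 Dcn UMIs, and T cell-like cells had 3.46 (1.58 to 6.56). Pericyte-like cells had 459 and smooth muscle-like cells 1476. Endocardial-like cells had 7.37 (5.07 to 10.4), or 1.93 times the fibroblast ratio. Macrophage-like cells had 5.51 (3.814 to 7.70), an interval just above the unrounded fibroblast ratio of 3.8105. Per 1000 Col1a1 UMIs, fibroblast-marker cells had 27.9 Pdgfrb UMIs. By that reference macrophage-like cells at 46.7 (32.3 to 65.3) and endocardial-like cells at 51.9 (35.7 to 72.9) were above the fibroblast value. T cell-like cells at 20.4 (9.33 to 38.7) held it in their interval. In endocardial-like cells the 9 pericyte markers summed to 211 CPM with 5 of them at 0 UMIs, against 84.9 CPM in blood endothelial-like and 21531 CPM in pericyte-like cells. Their part in the endocardial Pdgfrb level was not tested. Thinned, 4.91% of endocardial-like cells had a Pdgfrb UMI (2.48 to 8.62%), 11.2% unthinned, above the background of 0.982% in B cell-like and T cell-like cells (0.320 to 2.28%).

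**Figure D3:**
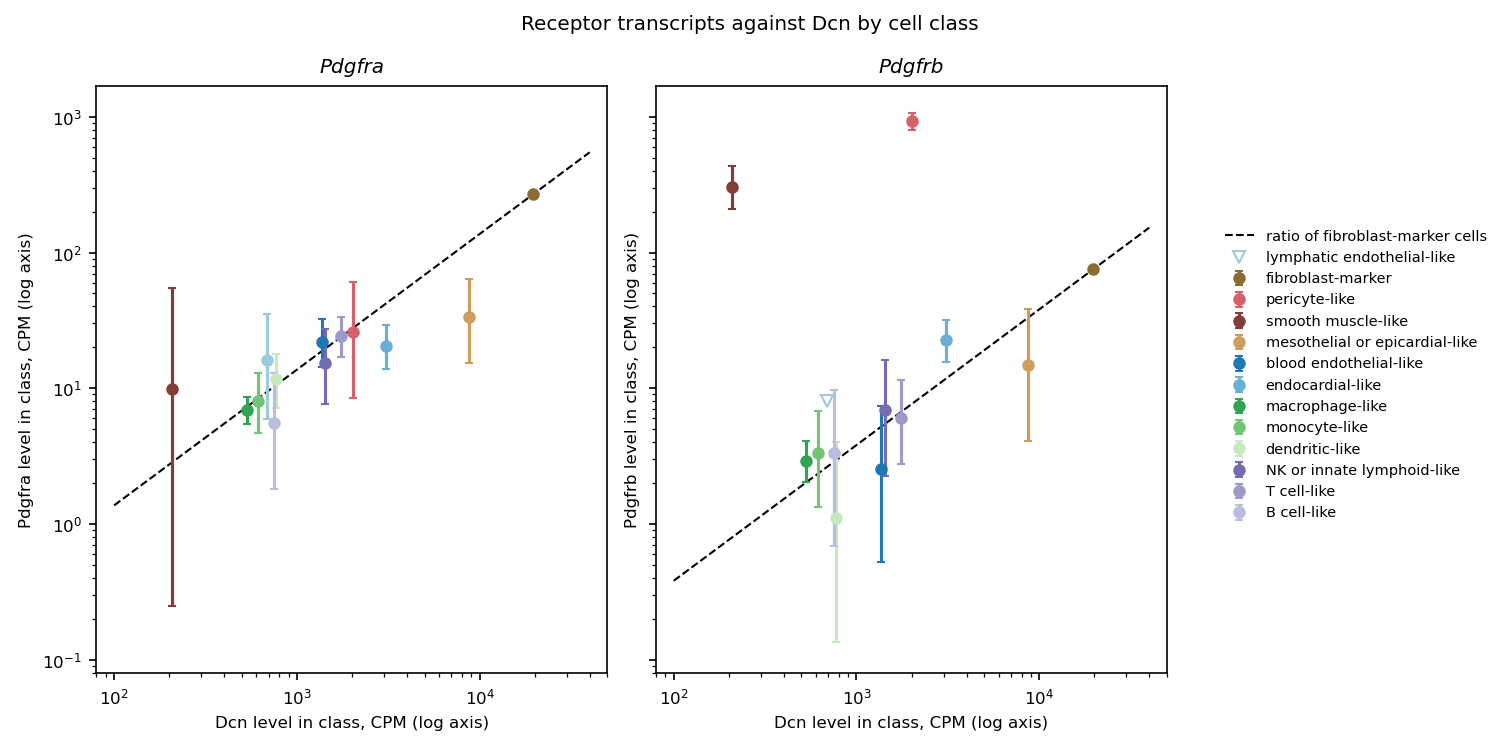
Level of Pdgfra (left) and Pdgfrb (right) against the level of Dcn in 13 cell classes, both in CPM on log axes, with 95% exact Poisson intervals for the receptor. The dashed line is the receptor to Dcn ratio of fibroblast-marker cells, and the open triangle marks 0 Pdgfrb UMIs in lymphatic endothelial-like cells, placed at the level of 3 UMIs. Macrophage-like, monocyte-like and T cell-like cells lie near the Pdgfra line, while pericyte-like and smooth muscle-like cells lie far above the Pdgfrb line (459 and 1476 per 1000 Dcn UMIs against 3.81).

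The 9 fibroblast-marker clusters carried the receptors in different proportions. Pdgfra was highest in cluster 3, led by Cxcl14 and Penk, at 356 CPM (340 to 373), and in cluster 5, led by Ccl11 and Ces1d, at 336 CPM (320 to 352). Cluster 4, led by Igfbp3 and Mmp3, had 321 CPM (305 to 337). Clusters 1, 2 and 20 had 238, 251 and 228 CPM. The lowest levels were in cluster 9, led by the matrix genes Thbs4 and Cthrc1 with Postn, at 185 CPM (173 to 198), in the cycling cluster 15 at 186 CPM (167 to 207) and in the 56 cells of cluster 19.1, led by Wif1 and Prg4, at 114 CPM (80.9 to 156). Cluster 3 was 3.13-fold above cluster 19.1 (2.28 to 4.42). Ratios between fibroblast-marker, macrophage-like or monocyte-like clusters, here and below, set the highest against the lowest for the gene. Their intervals do not allow for that choice.

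Pdgfrb did not share this order. Cluster 4 was highest at 99.5 CPM (91.0 to 108.5). Cluster 2, led by Stmn4, Sema3c and Cd248, was lowest at 38.6 CPM (34.2 to 43.4), a ratio of 2.58 (2.22 to 2.99). The other clusters had between 60.0 and 90.7 CPM. The latter level, in cluster 1, had an interval (84.4 to 97.4) that overlapped that of cluster 4, so first place is not settled. The Pdgfrb share of receptor UMIs therefore ran from 13.3% in cluster 2 (11.9 to 14.9%) and 15.2% in cluster 5 to 30.4% in cluster 9 (28.0 to 33.0%) and 36.1% in cluster 19.1 (24.2 to 49.4%).

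The fibroblast ligands were also uneven. Pdgfd had 23.0 CPM in cluster 4 (19.1 to 27.6) and 11.7 CPM in cluster 3 (8.90 to 15.01), and 2.25 CPM in cluster 1 (1.36 to 3.52). Cluster 4 was 10.2-fold above cluster 1 (6.26 to 17.6). Cluster 4 also had the highest Pdgfrb level, but cluster 1, the lowest for Pdgfd, came next for Pdgfrb at 90.7 CPM (84.4 to 97.4). That interval overlaps the Pdgfrb interval of cluster 4 (91.0 to 108.5), so the lead for Pdgfrb is not settled. Pdgfa had 99.2 CPM in cluster 19.1 (68.7 to 139, 34 UMIs in 21 of its 56 cells) and 5.64 CPM in cluster 3 (3.77 to 8.09), a 17.6-fold range (10.4 to 29.95). Clusters 9 and 4 had 23.9 and 22.2 CPM. Cluster 3, the highest for Pdgfra, was thus the lowest for Pdgfa, and cluster 19.1 the reverse. In cluster 1, 1 cell held 19 of the 93 Pdgfa UMIs. The Wif1-led cells were split off from a cluster that also held smooth muscle-like cells. Of 2 further groups split from it, the 46 mixed cells had 65.4 CPM of Pdgfa and the 22 cells that lost their name, led by Wif1 and Fmod, 199 CPM (133 to 285).

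**Figure D4:**
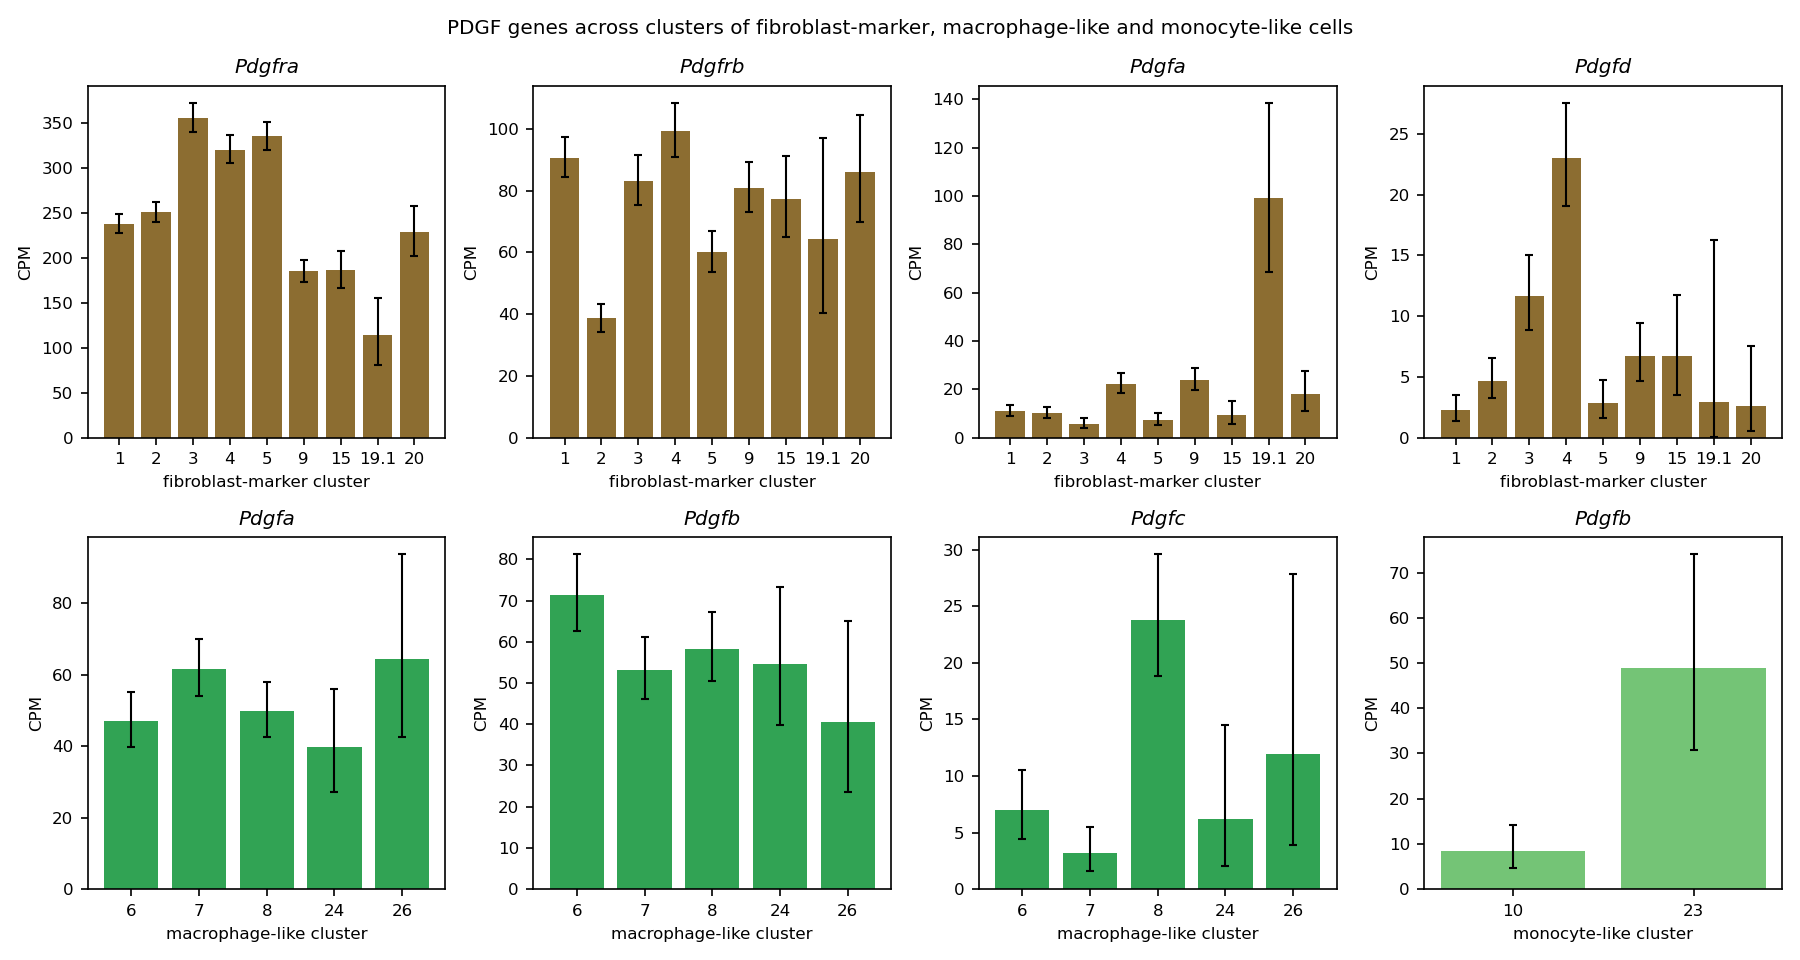
Level (CPM, bars, with 95% exact Poisson intervals) of Pdgfra, Pdgfrb, Pdgfa and Pdgfd in the 9 fibroblast-marker clusters (top), and of Pdgfa, Pdgfb and Pdgfc in the 5 macrophage-like clusters and Pdgfb in the 2 monocyte-like clusters (bottom). Each panel has its own linear axis from 0. Pdgfd is highest in fibroblast-marker cluster 4 (23.0 CPM) and Pdgfc in macrophage-like cluster 8 (23.7 CPM).

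Among macrophage-like cells, Pdgfc was the ligand that differed most between clusters. Cluster 8, led by Folr2, Cbr2 and Ccl8 and carrying Cd163 and Lyve1 among its leading genes, had 23.7 CPM (18.8 to 29.6) and held 79 of the 124 macrophage Pdgfc UMIs. Cluster 7, led by Il1b, Mmp12 and Spp1, had 3.15 CPM (1.63 to 5.50), so cluster 8 was 7.55-fold higher (4.09 to 15.2). Pdgfb ranged from 71.5 CPM in cluster 6, led by Lilra5 and Ccl12, to 40.6 CPM in cluster 26, led by Arg1 and Saa3, a ratio of 1.76 (1.08 to 3.08). Of the 17 Pdgfb UMIs of cluster 26, 6 came from 1 cell. Since the pair was picked as the highest and lowest, this interval does not settle a difference. Pdgfa ranged from 64.4 to 39.7 CPM, a ratio of 1.62 whose interval (0.934 to 2.79) includes no difference. The monocyte-like clusters differed in Pdgfb. Cluster 23, led by Ear2 and Treml4, had 48.9 CPM (30.7 to 74.1) and cluster 10, led by Chil3 and Plac8, 8.42 CPM (4.60 to 14.1), a ratio of 5.81 (2.84 to 12.3).

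Blood endothelial-like cells were divided into 6 sub-clusters, after their levels as a class had been seen. Sub-cluster 2 (51 cells), led by Clu, Cytl1 and Fbln5 with Eln and Gja4, had the highest Pdgfb at 344 CPM (279 to 419) and the highest Pdgfd at 126 CPM (88.5 to 175). Of its 98 Pdgfb UMIs, 22 came from 1 cell. Sub-cluster 1 (91 cells) carried Car4 and Gpihbp1, which mark capillary endothelium, behind the neutrophil transcripts S100a8 and S100a9. It had 208 CPM of Pdgfb (166 to 259), 38.1 CPM of Pdgfd (21.4 to 62.9) and 30.5 CPM of Pdgfa (15.8 to 53.3). Sub-cluster 2 was thus 1.65-fold above it for Pdgfb (1.22 to 2.24) and 3.31-fold for Pdgfd (1.77 to 6.51). Sub-cluster 3 was the lowest for both genes. Against it, sub-cluster 2 was 4.74-fold higher for Pdgfb (2.60 to 9.49) and 5.23-fold for Pdgfd (1.87 to 20.2). Intervals of ratios between sub-clusters do not allow for the choice of the pair. Both Pdgfb ratios include the cell with 22 UMIs and were not computed without it, so those differences are not settled.

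Pdgfa had another order among them. Sub-cluster 4 (25 cells), led by Nr2f2, a transcription factor of venous identity, had 333 CPM of Pdgfa (244 to 444), 10.9-fold above sub-cluster 1 (5.69 to 22.6), from 46 UMIs in 16 of its 25 cells. Its Pdgfb level was 109 CPM (60.8 to 179). Sub-cluster 3 (30 cells), led by Cxcl10 and Sele, had 121 CPM of Pdgfa, 72.5 CPM of Pdgfb (37.5 to 127) and 24.2 CPM of Pdgfd from 4 UMIs. The cycling sub-cluster 5 (15 cells) had 163 CPM of Pdgfa, 12 of its 19 UMIs from 1 cell. Sub-cluster 6 was 6 cells led by Dcn, Ccl7 and Col3a1, with 14445 CPM of Dcn and a median of 12227 UMIs, and held 19 of the 26 Pdgfra UMIs of the class. Without these 6 cells, blood endothelial-like cells had 6.37 CPM of Pdgfra (2.56 to 13.1) in place of 22.1, and 200.3 CPM of Pdgfb and 60.1 CPM of Pdgfd.

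**Figure D5:**
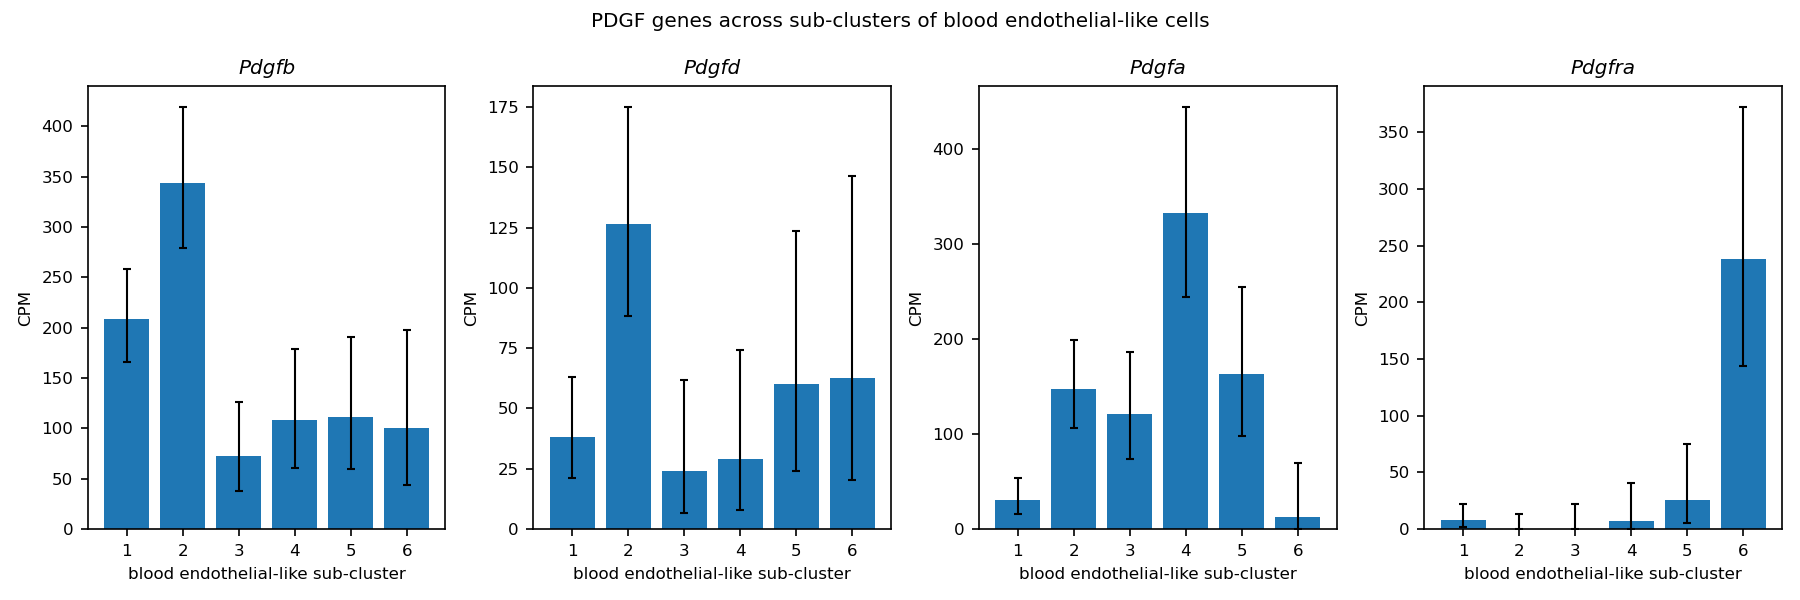
Level (CPM, bars, with 95% exact Poisson intervals) of Pdgfb, Pdgfd, Pdgfa and Pdgfra in 6 sub-clusters of the 218 blood endothelial-like cells, each panel with its own linear axis from 0. Sub-cluster 2 is highest for Pdgfb (344 CPM) and Pdgfd (126 CPM) and sub-cluster 4 for Pdgfa (333 CPM). Pdgfra is concentrated in the 6 Dcn-rich cells of sub-cluster 6.

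The classes were then compared in pairs over all genes. A gene was called where it differed by at least 2-fold and had at least 20 UMIs over both sides, with no requirement on its interval. Macrophage-like against fibroblast-marker cells put the main ligand-bearing leukocytes beside the main receptor carriers. Of 17231 genes with enough UMIs, 16.6% were called higher and 31.1% lower in macrophage-like cells, 47.8% in all. All 6 members were called, 3 in each direction. Pdgfb was 83.7-fold (57.4 to 127), Pdgfc 46.7-fold (23.8 to 104) and Pdgfa 3.87-fold higher (3.44 to 4.35). Pdgfra was 39.2-fold (31.5 to 49.5), Pdgfrb 25.7-fold (18.3 to 37.1) and Pdgfd, from 3 UMIs, 29.0-fold lower (9.84 to 142). The ligands were therefore split, with Pdgfd on the side of the receptors. The fibroblast-marker level of Pdgfb is read as background (after thinning 0.247% of cells, against 1.38% of B cell-like and T cell-like cells), so its ratio is a lower bound. For Pdgfc the shares were 0.103% and 0.197%, the latter from 1 cell (0.00497 to 1.09%), too few to place the fibroblast-marker level at background. Cluster 9 held 6 of the 9 fibroblast-marker Pdgfc UMIs. The receptor levels of macrophage-like cells are read as background too, with shares of 1.13% (Pdgfra) and 0.485% (Pdgfrb), against 2.55% and 0.982%. On that reading the receptor ratios are lower bounds. Per 1000 Col1a1 UMIs, however, macrophage-like cells had 46.7 Pdgfrb UMIs (32.3 to 65.3), above the 27.9 of fibroblast-marker cells. Whether macrophages express Pdgfrb was not tested. For Pdgfra the background was 0.602% in B cell-like and 3.50% in T cell-like cells, and the macrophage-like share lay between. Macrophage-like cells also carried fibroblast transcripts (1961 CPM over the 10 markers), whose part in the receptor ratios was not tested.

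Blood endothelial-like against fibroblast-marker cells gave 16.2% of 16267 genes higher and 24.8% lower, 41.0% in all. Of the 5 members with enough UMIs, 3 were called higher: Pdgfb 272-fold (184 to 419), Pdgfa 8.71-fold (7.18 to 10.5) and Pdgfd 8.05-fold (6.13 to 10.5). Both receptors were called lower, Pdgfra 12.2-fold (8.33 to 18.7) and Pdgfrb 29.4-fold from 3 UMIs (10.1 to 143). Without the 6 Dcn-rich cells of sub-cluster 6, Pdgfra was 42.3-fold lower (20.5 to 105) and Pdgfrb, from 1 UMI, 82.4-fold (14.8 to 3254). The Pdgfb ratio is again a lower bound, since its fibroblast level is read as background, and so is the Pdgfrb ratio, with a thinned share of 0.917% in blood endothelial-like cells. The sixth member, Pdgfc, had 9 UMIs over both sides. Mural cells (pericyte-like and smooth muscle-like together) against fibroblast-marker cells gave 19.2% of 16080 genes higher and 30.9% lower, 50.1% in all. Again 3 of 5 members were called higher, Pdgfrb 9.51-fold (8.22 to 10.9), Pdgfa 21.9-fold (17.3 to 27.5) and Pdgfb 38.2-fold from 8 UMIs (15.1 to 86.1), over the same background level. With pericyte-like cells alone Pdgfb was 7.29-fold higher from 1 UMI. That level of 5.17 CPM (0.131 to 28.8) overlaps the fibroblast-marker interval (0.472 to 1.03), so a difference is not settled there. Pdgfra was 13.2-fold lower (6.08 to 36.1), and Pdgfd did not differ beyond counting error at a ratio of 0.907 (0.109 to 3.31). The mural and blood endothelial contrasts share the fibroblast-marker side with the macrophage contrast.

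Within the endothelium, blood against lymphatic endothelial-like cells gave 14.1% of 8034 genes higher and 9.22% lower, 23.4% in all. Of 4 members with enough UMIs, Pdgfb (14.3-fold, 6.05 to 44.6) and Pdgfd (11.2-fold from 2 lymphatic UMIs, 2.98 to 93.9) were called higher in blood endothelial-like cells and none lower. Pdgfa had a ratio of 1.26 (0.863 to 1.88) and Pdgfra of 1.36 (0.548 to 4.05), or 0.393 without the 6 Dcn-rich cells, too few UMIs then remaining for a call. Macrophage-like against monocyte-like cells gave 18.7% of 12641 genes higher and 7.92% lower, 26.6% in all. All 3 ligands with enough UMIs were called higher in macrophage-like cells: Pdgfa 15.9-fold (7.68 to 39.8), Pdgfc 22.5-fold from 1 monocyte UMI (3.97 to 896) and Pdgfb 3.49-fold (2.50 to 5.03). Neither receptor was called, with ratios of 0.855 (0.502 to 1.54) for Pdgfra and 0.882 (0.385 to 2.36) for Pdgfrb.

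Whether members were detected in the same cells was read at 2500 UMIs per cell. In fibroblast-marker cells 419 of 4856 (8.63%) had UMIs of both receptors, 33.1% unthinned. Pdgfrb was found in 17.8% of the cells with a Pdgfra UMI (16.2 to 19.4%) and in 16.3% of those without (14.9 to 17.8%), with overlapping intervals. Of the 60 mural cells, 23 (38.3%) had both Pdgfrb and Pdgfa, the ligand of the other receptor. Pdgfa was found in 48.9% of mural cells with a Pdgfrb UMI (34.1 to 63.9%) and in 9 of the 13 without (69.2%, 38.6 to 90.9%), with overlapping intervals. In blood endothelial-like cells Pdgfd was found in 22.4% of cells with a Pdgfb UMI (13.1 to 34.2%) and 11.3% of those without (6.70 to 17.4%), with overlapping intervals. Pdgfa was found in 13.4% of cells with Pdgfb and 19.9% of those without. In macrophage-like cells Pdgfa was found in 11.9% of cells with Pdgfb and 11.4% of those without, and Pdgfc in 3.08% and 2.09%. The depth of a cell limits all these shares, and a cell without a UMI may still express the gene.

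The extracellular partners, a list of 16 genes for the proteases that process the ligands and for the proteins that bind them, were compared with fibroblast-marker cells first. In macrophage-like cells 3 of 15 with enough UMIs were called higher and 8 lower than in fibroblast-marker cells, with a median log2 ratio of -2.25 beside -0.26 over all genes tested. Plaur, the urokinase receptor, was 7.94-fold and Plau, urokinase, which can activate PDGF-D, 6.02-fold higher. Sparc, a matrix protein that binds PDGF-B, was 42.0-fold lower and the proprotein convertase Pcsk6 31.7-fold lower. In blood endothelial-like cells 2 of 14 were higher and 5 lower (median -0.40 beside -0.01), with Plaur 3.37-fold and the co-receptor Nrp1 2.97-fold higher, and Lrp1, an endocytic partner of the beta receptor, 18.8-fold and Thbs1 12.7-fold lower. In mural cells none of 14 was higher and 8 were lower (median -1.53 beside -0.02). Pcsk6 was 14.2-fold lower (7.23 to 33.0), and Plau had 0 UMIs, which allows up to 10.2 CPM, above the fibroblast-marker level of 9.23 CPM. Beside these counts, the shares of all genes called higher and lower were 16.6% and 31.1% in macrophage-like cells. They were 16.2% and 24.8% in blood endothelial-like and 19.2% and 30.9% in mural cells. Plat, tissue plasminogen activator, which activates PDGF-C, had 181 CPM in fibroblast-marker, 264 in pericyte-like, 145 in endocardial-like and 130 in blood endothelial-like cells but 6.19 CPM in macrophage-like cells, the class with most Pdgfc. Plat was picked out after its values were seen.

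The second list held 29 adaptors and effectors of the receptor kinases. Of these, 2 were higher and 6 lower in macrophage-like than in fibroblast-marker cells (median log2 ratio -0.41 beside -0.26), with Pik3cb 12.01-fold and Grb2 4.02-fold higher and the kinase Yes1 13.4-fold and the adaptor Nck2 10.2-fold lower. In blood endothelial-like cells 9 were higher and 1 lower (median 0.52 beside -0.01). Pik3cb was 18.3-fold and Yes1 7.09-fold higher, and Src, from 2 UMIs, 6.13-fold lower (1.69 to 50.8). In mural cells 6 were higher and none lower (median 0.24 beside -0.02). The phosphatidylinositol 3-kinase subunit Pik3r1 was 2.93-fold higher (2.10 to 3.99), and Pik3cb, from 2 UMIs, 6.08-fold with an interval that includes no difference (0.714 to 23.3). Over all genes, 16.6% were called higher and 31.1% lower in macrophage-like cells, 16.2% and 24.8% in blood endothelial-like cells, and 19.2% and 30.9% in mural cells.

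The 15 dampeners of receptor kinase signalling were divided. In macrophage-like cells 4 were higher and 7 lower than in fibroblast-marker cells (median -0.64 beside -0.26). The phosphatases Ptprj and Ptpn1 were 3.79-fold and 3.58-fold higher, and the Sprouty genes Spry4 and Spry1, feedback inhibitors of receptor tyrosine kinases, 63.0-fold (28.9 to 172) and 26.7-fold lower. In blood endothelial-like cells 1 was higher, the phosphatase Dusp6 at 3.88-fold, and 3 were lower, Spry1 by 3.96-fold and Spry2 by 3.103-fold among them (median -0.01 beside -0.01). In mural cells 1 was higher, Spry4 at 3.13-fold (2.11 to 4.50), and 4 were lower (median 0.35 beside -0.02). Of these Socs3 was 2.94-fold lower (2.30 to 3.81) and the ubiquitin ligase Cblb, from 3 UMIs, 2.66-fold lower with an interval that includes no difference (0.907 to 12.9). The shares of all genes called higher and lower were again 16.6% and 31.1% (macrophage-like), 16.2% and 24.8% (blood endothelial-like) and 19.2% and 30.9% (mural).

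In blood against lymphatic endothelial-like cells, 6 of 13 extracellular partners were higher and 3 lower (median 0.81 beside -0.02). Nrp1 was 21.2-fold higher (10.7 to 49.3) and Pcsk5, from 1 lymphatic UMI, 14.5-fold (2.47 to 583), while Pcsk6 was 5.995-fold and Thbs1 3.40-fold lower. Of 26 adaptors and effectors 3 were higher, Nck2 and Sos1 3.14-fold and 3.06-fold among them, and 1 lower, the adaptor Shc1 at 5.08-fold (median 0.01). Of 15 dampeners 4 were higher, led by Ptprj at 3.46-fold from 2 lymphatic UMIs (0.850 to 30.3) and Spry4 at 2.08-fold (0.984 to 5.07), and 1 lower, Cblb at 2.12-fold (0.852 to 5.05) (median 0.59). Those 3 intervals include no difference. In macrophage-like against monocyte-like cells 3 of 13 partners were higher, Plau 10.7-fold among them, and 2 lower, Thbs1 4.45-fold and Plaur 4.40-fold (median -0.20 beside 0.09). Of 28 adaptors and effectors none was higher and 1 was lower (median -0.29). Of 14 dampeners 3 were higher, Spry2 3.75-fold from 3 monocyte UMIs (1.23 to 18.7) and Spred2 3.72-fold (1.66 to 10.3) among them, and 2 lower, Cblb 3.93-fold and Ptpn1 3.17-fold (median -0.08). Over all genes, 14.1% were called higher and 9.22% lower in blood against lymphatic endothelial-like cells. In macrophage-like against monocyte-like cells the shares were 18.7% and 7.92%.

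The genes whose levels followed each member most closely were taken from 7688 genes over the 28 unmixed clusters, by Pearson correlation of log2(CPM + 10). The clusters share 1 library, and the correlations are a description. For Pdgfra they were Plekha6, Pcdh9 and Htra3 (r = 0.97 each), all highest in fibroblast-marker cluster 3. For Pdgfrb they were Pcdh18 (0.97), the feature ENSMUSG00000120630 (0.96) and Ndufa4l2 (0.96), all highest in pericyte-like cells. Pdgfb was followed by Cd36 (0.90), Entpd1 (0.86) and Ehd4 (0.84), of which Cd36 was a marker used to class blood endothelium, and Pdgfd by Ift122 (0.83), Uaca (0.80) and Mgll (0.80). Pdgfc was followed by Ccl24 (0.90), Timd4 (0.86) and Cd163 (0.86), the last a marker used to class macrophages. Pdgfa was followed by Uqcr11 (0.87), Mgst3 (0.81) and Cav2 (0.80).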

How the data were processed

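The deposited file holds whole-number UMI counts of 1 gene expression library (10x 3′ version 3.1), not normalized by the authors. Per the submitters' processing notes, STARsolo, Scanpy and mm10 were used; no version or setting is given there. Counts of the hashtag library were not used here. The tools were Python 3.11.15, scanpy 1.11.5, numpy 2.4.6, scipy 1.17.1, pandas 2.3.3, igraph 0.11.9 and matplotlib 3.10.9. The 9369 barcodes held 2567 to 42567 UMIs (69993559 in all). A filter of at least 500 UMIs and 250 genes and at most 20% mitochondrial UMIs removed 0, and Scrublet called 391 doublets (4.17%), which were left out. Clustering used 2000 variable genes, 30 components, 15 neighbours and Leiden resolution 1. The 6 members, 60 pathway genes, mitochondrial and ribosomal genes and CreERT2 were set aside before it. The 30 clusters were classed by 20 marker lists (176 genes). A marker counted as detected at 50 CPM and 25% of its highest cluster, and a class needed 3. A cluster with fibroblast and mural markers was sub-clustered at resolution 0.5, a rule set after seeing the data, which gave 33. Blood endothelial-like cells were sub-clustered likewise. Levels are summed counts as CPM with Poisson intervals, ratios have binomial intervals, and shares Clopper-Pearson intervals. A count of 0 was set against 3 UMIs over the class. List medians add 1 CPM to each side. Named genes are the members, in each comparison and list at most 2 called genes per side with the largest ratio, and the 3 closest genes per member by correlation (genes of at least 50 CPM in a cluster). The members and lists were chosen with earlier results of these data known. The ratio and call steps were tested on simulated data. Of the genes this rule names, 2 are not reported here. No sequences are printed.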

Additional observations from a re-analysis of the deposited data

How the results depend on the processing

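All 20 member ratios called in the 5 comparisons kept their direction and stayed past 2-fold in every alternative that gave a value: other cluster resolutions, seed, variable genes and components, doublets kept, cells weighted equally, mixed clusters included, fibroblasts gated as single cells, and 3 alternatives chosen after seeing the data (pericyte-like cells alone as mural, endocardial-like cells added to blood endothelium, 6 Dcn-rich cells left out of it). Of them 12 moved by over 1.5-fold somewhere. Against fibroblast-marker cells, the ratio of blood endothelial-like cells ran from 145 to 392 for Pdgfb, from 4.45 to 8.64 for Pdgfd, from 5.85 to 42.3 lower for Pdgfra and from 5.48 to 82.4 lower for Pdgfrb. Mural Pdgfb ran from 7.29, which rests on 1 UMI in pericyte-like cells alone, to 55.0, and macrophage Pdgfc from 43.0 to 116. Macrophage against monocyte Pdgfa ran from 4.14 to 23.1 and Pdgfc from 4.73 to 53.5. Of 60 counts of called members under alternatives, 59 stayed within 1.5 times. The exception was macrophage-like against monocyte-like cells with called doublets kept, 5 members in place of 3, as Pdgfra was then 5.57-fold and Pdgfrb 3.56-fold higher in monocyte-like cells, and the cause was not tested. Thinning to 1500 UMIs leaves fewer UMIs per cell, and 7 of 21 shares stayed within their interval. No paired analysis was possible because there is 1 library. Depth limits the 39 pericyte-like and 21 smooth muscle-like cells most, where 3 UMIs amount to 15.5 and 29.6 CPM.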
